A study of Mus musculus with 6 samples.

Results

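The voltage-gated and TRP ion channel genes of the mouse pituitary were examined in wild-type and Bmal1-deficient animals. This group of genes was chosen with earlier results of these data known, and its members were then taken by symbol. They are all genes whose annotated symbol begins with Kcn (potassium channels), Scn and a digit (sodium channels), Cacn (calcium channels), Hcn and a digit (hyperpolarisation-activated channels) or Trpc, Trpv or Trpm and a digit (transient receptor potential channels). The array held 111 such genes among 12393 named by a probe set of a single gene, and each was read from its brightest probe set by the mean of all 6 arrays. Of the 111, 62 were potassium, 23 calcium, 15 TRP, 9 sodium and 2 HCN channel genes. The pattern also took in Trpc4ap, which encodes an adaptor protein that binds TRPC channels and is not itself a channel, and auxiliary subunits that form no pore.

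Whole pituitaries of male C57BL/6J mice aged 8 to 12 weeks were collected at zeitgeber time 12, lights off in a cycle of 12 hours of light and 12 of darkness. The 3 wild-type arrays (replicates 1 to 3) and the 3 arrays labelled Bmal1-/- (replicates 4 to 6) each carried RNA from a pool of 3 glands of 1 genotype. BMAL1, encoded by Arntl, is a core transcription factor of the circadian clock, and the comparison asks which pituitary transcripts depend on it. The labels give the mutant as Bmal1-/- and name no construct, promoter or Cre line. Each value is a linear intensity summarised with MAS5, and n = 3 arrays per genotype throughout.

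Endocrine cells of the pituitary fire action potentials without nervous input, and the calcium that enters through voltage-gated channels drives hormone release. Leak and inwardly rectifying potassium channels set the resting potential. Voltage-gated and calcium-activated potassium channels end each spike, and TRP, sodium leak and HCN channels supply depolarising current. Hypothalamic hormones act on many of these channels through G proteins, so channel expression helps set how readily a cell fires.

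Most channel genes gave weak signals. Only 21 of the 111 (18.9%) had a mean above the median of all probe sets, which lay at an intensity of 32.7, and 13 were above the array's own median on each of the 6 arrays. The test of genotype covered the 60% brightest probe sets, down to an intensity of 17.3, and 33 channel genes passed that filter while 78 did not. The filter uses the mean of all 6 arrays without regard to genotype. Just inside it lay Kcnu1, Trpc5 and Kcna3 with mean intensities of 19.2, 18.8 and 17.5, and just outside it Kcnh3, Kcnk3 and Hcn3 at 18.2, 17.0 and 15.9. The filter ranks means of log2 values, so its order can differ slightly from that of these linear means. The spread between replicate arrays widened as the signal fell. The median coefficient of variation within a genotype was 11.2% for the 13 genes above the median on every array, 18.1% for the 20 other tested genes and 65.9% for the 78 not tested. The brightness of different probe sets does not measure the relative amounts of their transcripts.

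**Figure D1:**
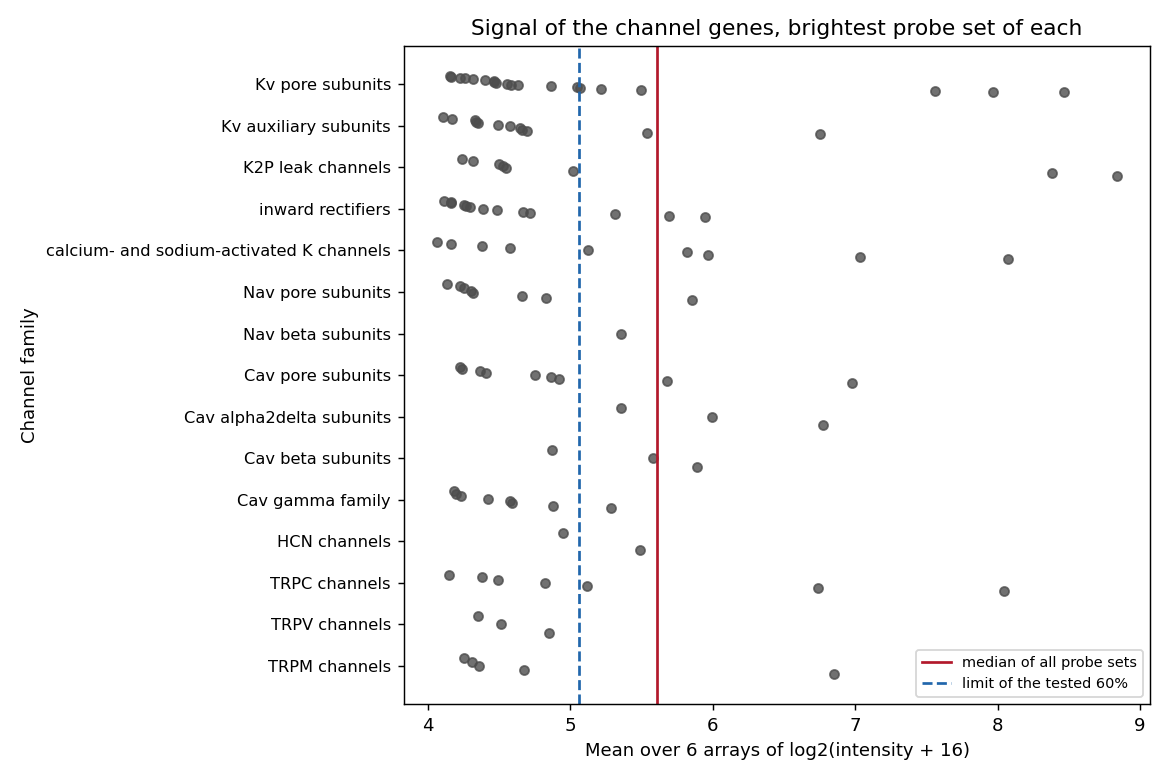
Mean signal of each of the 111 channel genes on the x axis, as the mean over 6 arrays of log2(intensity + 16), by channel family on the y axis. Each point is a gene; 21 lie right of the solid line, the median of all probe sets, and 33 lie at or right of the dashed line, the limit of the 60% of probe sets that were tested.

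As background to every comparison, the arrays resembled each other, with Pearson's r across tested probe sets of 0.980 to 0.986 within and 0.970 to 0.976 between genotypes. Array medians were 33.5 to 34.3 in wild type and 31.7 to 32.2 on the arrays labelled Bmal1-/-, without overlap. The 3'/5' signal ratios of Actb and Gapdh, a measure of RNA integrity, overlapped between genotypes. The probe set of Arntl, the targeted gene, read 38.6 to 51.7 in wild type and 102 to 127.5 on the arrays labelled Bmal1-/-. The sources used here do not give its position relative to the deleted part, so it does not check the labels. All directions below therefore refer to arrays labelled Bmal1-/- against wild type.

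In the potassium leak and delayed rectifier families, 1 gene each was lower on the arrays labelled Bmal1-/-, and no channel gene passed the test upward. Kcnk2, which encodes the K2P leak channel TREK-1, had a mean at 74.9% of wild type, and Kcna5, which encodes the delayed rectifier Kv1.5, a mean at 66.2% of wild type. They were the only 2 of 33 tested channel genes past the threshold, an adjusted p under 0.05 in limma. That is 6.06%, beside 5.66% of the 8033 tested genes on the whole array, so the share of channel genes called was near the background. In the lower direction the background was 2.66%.

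Kcnk2 read 514.3, 505.8 and 508.6 on the wild-type arrays and 390.3, 350.1 and 405.0 on the arrays labelled Bmal1-/-. Every wild-type array lay above every other array, and the wild-type values were nearly equal. The means were 509.6 ± 4.33 (SD, n = 3) and 382 ± 28.4, so that the log2 difference was -0.40 (SE 0.08, 95% interval -0.58 to -0.23, limma adjusted p = 0.0153). TREK-1 is opened by membrane stretch, arachidonic acid and volatile anaesthetics, is closed by phosphorylation downstream of cyclic AMP, and holds cells near their resting potential. The Kcnk2 call was lost without wild-type replicate 3 (adjusted p = 0.0545), without Bmal1-/- replicate 5 (0.0725) and with a variance model that had no intensity trend (0.0685). It held under the 13 other alternatives tried, and its log2 fold change lay between -0.45 and -0.34 in all 16. The alternative that picks a gene's brightest probe set by linear mean could not change this call, because Kcnk2 has a single probe set.

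Kcna5 read 429.3, 374.4 and 450.1 in wild type and 264.2, 236.6 and 329.0 on the arrays labelled Bmal1-/-. The genotypes did not overlap, although the highest Bmal1-/- array, replicate 6, stood close to the lowest wild-type array. The means were 418 ± 39.1 and 277 ± 47.4, so that the log2 difference was -0.58 (SE 0.12, 95% interval -0.83 to -0.32, limma adjusted p = 0.0159). Kv1.5 opens on depolarisation and inactivates slowly. It carries the ultrarapid repolarising current of atrial muscle. Its transcript is known from clonal pituitary cells to rise with glucocorticoid. The Kcna5 call held in 10 of 16 alternatives and was lost without wild-type replicate 1 (0.0538) or 3 (0.0756), without Bmal1-/- replicate 4 (0.0557) or 5 (0.0665), in a fit of unfiltered probe sets (0.0521) and in one with no variance trend (0.0657). Without Bmal1-/- replicate 6 its adjusted p was 0.0059. Each omission also leaves a fit with fewer arrays. Both Kcnk2 and Kcna5 have a single probe set on the array, so no further probe set checks either value. For both, picking the brightest probe set by linear mean, counted among the 16, only repeats the reported fit.

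The promoters of both genes are shown because BMAL1 binds E-boxes, whose canonical form reads CACGTG and whose general form reads CANNTG. The sequences run 5′ to 3′ on the gene's strand over the 250 bases before an annotated RefSeq start (GRCm38.p6, minus strand for both), with every CANNTG match in capitals. Kcna5 has 1 start in the table, and Kcnk2 has 4, of which the outermost is printed. The arrays do not show which Kcnk2 start is used.
Kcnk2, chr1:189402274-189402523: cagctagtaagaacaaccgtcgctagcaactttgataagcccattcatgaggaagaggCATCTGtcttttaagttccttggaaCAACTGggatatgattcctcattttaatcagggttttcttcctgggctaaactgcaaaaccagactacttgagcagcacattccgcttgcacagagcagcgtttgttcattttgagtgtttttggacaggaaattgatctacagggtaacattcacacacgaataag
Kcna5, chr6:126535556-126535805: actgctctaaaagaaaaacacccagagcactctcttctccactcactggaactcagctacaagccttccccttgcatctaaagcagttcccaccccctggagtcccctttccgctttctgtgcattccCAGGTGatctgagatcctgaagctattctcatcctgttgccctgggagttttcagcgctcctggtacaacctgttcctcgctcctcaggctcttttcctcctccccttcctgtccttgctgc
The printed Kcnk2 window held 2 CANNTG matches and the Kcna5 window 1, and none of the 5 windows of these genes held CACGTG. Among all 32851 windows of this length, 6.02% held CACGTG and 66.2% CANNTG, which reads the same on both strands and includes CACGTG. The core of the REV-ERB and ROR element, AGGTCA, searched on both strands, was in 14% of all windows. The D-box TTATGTAA, bound by DBP and its relatives, was in 0.819%. Neither was in any of the 5. No match says only that these letters are not in these windows.

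Promoter windows were found for 91 of the 111 channel genes, and for 19 of the 21 above the array median. Of the 122 windows of the 91 genes, 7 (5.74%) held CACGTG, near the 6.02% of all windows. Among the 19 genes above the array median, only Trpm7 held CACGTG (1 of 28 windows). Its match lay 25 bases before its start, shown in capitals in its surrounding sequence (minus strand).
Trpm7, chr2:126876262-126876308: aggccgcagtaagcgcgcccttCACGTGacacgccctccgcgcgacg
Trpm7, which fuses a magnesium- and calcium-permeable channel to a kinase, read 119.3, 104.6 and 106.5 in wild type and 94.8, 89.3 and 85.9 on the arrays labelled Bmal1-/-. The genotypes did not overlap, but its log2 fold change of -0.25 (95% interval -0.49 to -0.01) did not pass the test (limma adjusted p = 0.223). The other tested Trpm7 probe set gave -0.12, with overlap. A further one below the filter gave 0.07 in the unfiltered fit, also with overlap.

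**Figure D2:**
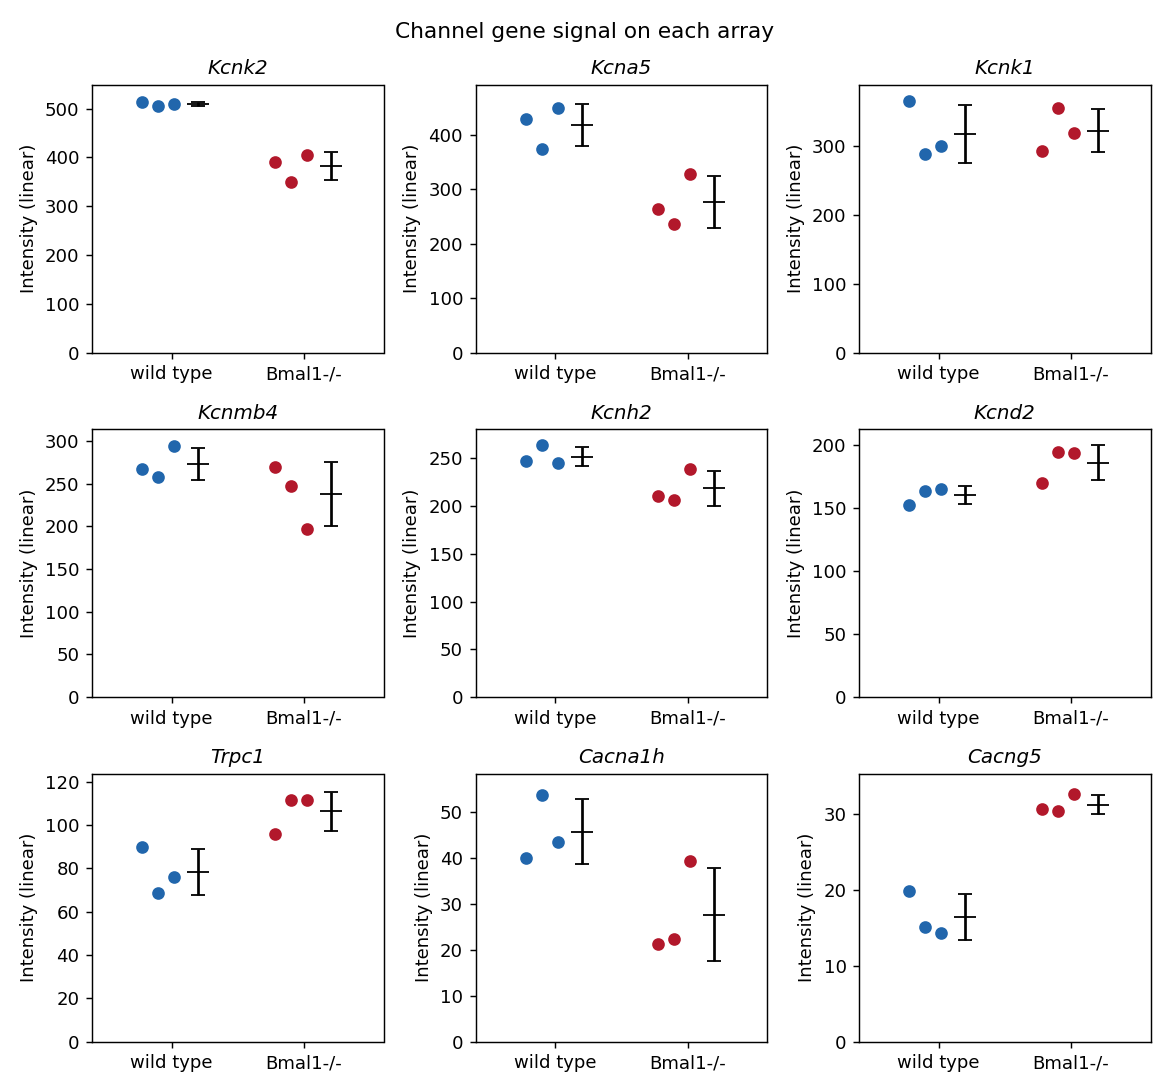
Linear intensity (y axis, from 0) on each array for 9 channel genes, with 3 wild-type arrays in blue and 3 arrays labelled Bmal1-/- in red; the black mark is the mean with its SD. Kcnk2 and Kcna5 are lower in every Bmal1-/- array, Kcnk1 overlaps, and Cacng5 is higher in every Bmal1-/- array at a signal near the lower limit of the test.

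None of the other tested potassium channels that act near rest passed. Kcnk1, which encodes the weakly conducting leak channel TWIK-1, read 364.9, 287.1 and 299.0 in wild type and 291.6, 353.8 and 318.5 on the arrays labelled Bmal1-/-. The genotypes overlapped fully, and the 95% interval of the log2 difference ran from -0.21 to 0.26. The other tested Kcnk1 probe set gave 0.21 (95% interval -0.06 to 0.48), also with overlap. Kcnj3, a subunit (GIRK1) of the channels that Gi-coupled receptors such as those for dopamine and somatostatin open, read 57.3, 57.6 and 44.8 against 42.1, 47.1 and 29.6 (log2 fold change -0.32, adjusted p = 0.271). Kcnj8 (Kir6.1), a pore of ATP-sensitive channels known from pericytes and smooth muscle, had a log2 fold change of -0.19 (95% interval -0.50 to 0.13). Kcnj10 (Kir4.1), the main inward rectifier of glia, was at 0.36 without overlap between genotypes (adjusted p = 0.240). These were the 3 tested of 13 inward rectifiers, and none passed.

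In the voltage-gated potassium channel family, 6 of 20 pore genes were tested, of which Kcna5 alone passed. Kcnh2 encodes ERG, a repolarising channel that thyrotropin-releasing hormone inhibits in lactotrophs. It read 246.8, 263.6 and 244.7 in wild type and 210.0, 206.1 and 239.2 on the arrays labelled Bmal1-/-. The genotypes did not overlap, but the difference of -0.19 (95% interval -0.40 to 0.01) did not pass (adjusted p = 0.263). Kcnd2, the A-type channel Kv4.2, went the other way, at 152.3, 163.7 and 165.3 against 170.2, 194.2 and 193.9 (0.19, 95% interval -0.02 to 0.41, adjusted p = 0.288). Its other tested probe sets gave -0.19 and 0.11. Kcnc1, the fast-spiking channel Kv3.1, had the largest log2 fold change of any tested channel gene, 0.59. Its 95% interval of 0.07 to 1.11 was also the widest, with values from 4.1 to 23.4 in wild type and from 21.7 to 36.8 on the other arrays (adjusted p = 0.178). Kcnc4 (0.18) and Kcna3 (0.02) overlapped between genotypes.

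Of 12 auxiliary genes of voltage-gated potassium channels 2 were tested and neither passed. Kcnip3 encodes a calcium sensor that binds Kv4 channels and, as DREAM, represses transcription. It read 108.9, 80.6 and 122.1 against 66.2, 84.9 and 97.9, with overlap (-0.27, adjusted p = 0.357; its other tested probe set gave -0.24). Kcnab1, a cytoplasmic beta subunit of Kv1 channels, the family to which Kv1.5 belongs, read 33.2, 31.9 and 51.9 against 22.4, 27.6 and 21.9. Those arrays did not overlap, and the difference of -0.44 (95% interval -0.81 to -0.08) did not pass (adjusted p = 0.152).

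All 5 tested genes of the group of calcium- and sodium-activated potassium channels had log2 fold changes below 0, and none of the 5 passed. Kcnma1, the pore of the large-conductance BK channel, which in pituitary cells shapes bursts of spikes, read 58.2, 51.5 and 38.5 in wild type and 20.9, 50.4 and 32.6 on the arrays labelled Bmal1-/-. The ranges overlapped and the difference was -0.40 (95% interval -0.85 to 0.05, adjusted p = 0.295). The BK beta subunit gene Kcnmb2, whose product inactivates the channel, read 125.1, 115.0 and 162.3 against 109.3, 104.9 and 85.0. These did not overlap (-0.37, adjusted p = 0.147), but its other tested probe set gave -0.02. Kcnmb4, the beta subunit typical of neurons, read 267.7, 258.1 and 293.8 against 269.4, 247.3 and 196.6, with overlap (-0.20, adjusted p = 0.351). Kcnn2, the small-conductance calcium-activated channel SK2, read 52.9, 53.4 and 63.8 against 38.9, 29.1 and 47.6, without overlap (-0.43, adjusted p = 0.138). Kcnu1, the sperm channel SLO3, was placed in this group by its gene family and not as a calcium-activated channel. It lay at the edge of the filter (-0.16).

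Of the 23 calcium channel genes, 8 were tested and none passed. Cacna1h, the T-type channel Cav3.2, which opens at voltages near rest, read 39.9, 53.6 and 43.4 in wild type and 21.3, 22.2 and 39.3 on the arrays labelled Bmal1-/-. The genotypes were just apart, since Bmal1-/- replicate 6 fell below the lowest wild-type array by less than 1 unit, and the difference was -0.52 (95% interval -0.91 to -0.13, adjusted p = 0.116). Cacna1d, the L-type channel Cav1.3, read 93.7, 113.6 and 89.9 against 135.6, 98.5 and 137.0, with overlap (0.27, adjusted p = 0.290), and its other tested probe set gave -0.23. The alpha2delta genes Cacna2d1, Cacna2d2 and Cacna2d3, which carry channels to the membrane, had differences of 0.28, -0.03 and -0.05, and the beta subunit genes Cacnb2 and Cacnb4 of -0.08 and -0.22. All 5 overlapped between genotypes.

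Cacng5 came nearest to the threshold among the genes that missed it. It encodes a transmembrane protein of the calcium channel gamma family, known chiefly as a partner of AMPA receptors. It read 19.9, 15.1 and 14.3 in wild type and 30.7, 30.4 and 32.7 on the arrays labelled Bmal1-/-. The groups did not overlap, and the means were 16.4 ± 3.03 and 31.3 ± 1.25, so that the log2 difference was 0.55 (SE 0.15, limma adjusted p = 0.0543). It passed upward after quantile normalization (adjusted p = 0.0370), with equal array medians (0.0332), without the variance trend (0.0310) and in a fit on gene means (0.0422), and in none of the 6 fits that left out an array. With either of those scalings the channel genes past the threshold were 2 lower and 1 higher, against 2 lower and 0 higher as reported. Equal array medians also moved the whole array, to 275 probe sets lower and 622 higher from 378 and 374. The signal was below the array median, and the second Cacng5 probe set, which was below the filter, read 7.1, 18.7 and 9.5 against 8.0, 5.7 and 6.5, that is, not higher.

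Few sodium, HCN and TRP channel genes could be tested. Of 8 sodium channel pore genes only Scn8a, the Nav1.6 channel of neurons and endocrine cells, passed the filter. It read 44.6, 49.7 and 47.2 against 43.9, 41.1 and 27.2, which did not overlap (-0.26, adjusted p = 0.378). Scn3b, a beta subunit gene with a signal below the array median, read 19.7, 17.0 and 23.4 against 34.8, 31.5 and 26.5. These did not overlap (0.38, 95% interval 0.05 to 0.72, adjusted p = 0.176). The other Scn3b probe set, below the filter, was not higher, at 12.7, 4.9 and 9.0 against 2.4, 1.0 and 11.4. Hcn2, a pacemaker channel gated by cyclic AMP, overlapped (-0.30, adjusted p = 0.394). Of 15 TRP genes, 4 were tested: Trpm7, Trpc4ap (0.10), Trpc5 (0.13) and Trpc1. Trpc1, a subunit of cation channels downstream of phospholipase C, read 89.8, 68.8 and 75.8 in wild type and 95.9, 111.3 and 111.6 on the arrays labelled Bmal1-/-. It did not overlap, at 0.38 (95% interval 0.11 to 0.65, adjusted p = 0.101), and its other tested probe set gave 0.10. None of the 3 Trpv genes passed the filter.

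Across the 33 tested genes, 20 had log2 fold changes below 0 and 13 above it, or 60.6% below 0, where the background was 50.1%. The genotypes did not overlap for 14 (42.4%), 9 lower and 5 higher, against 26.4% of all tested genes. An unadjusted p under 0.05 was reached by 11 (33.3%) against 21.5%. The median log2 fold change was -0.16 for the channel genes and within 0.01 of 0 for all 8033 genes. Channel genes above the array median were more often below 0, at 15 of 21, than the 12 dimmer tested channel genes, at 5 of 12. The same split was not made for all tested genes, so this contrast has no background beside it. These counts describe the genes that passed the filter and carry no test of the group. Precision differed between genes, with standard errors of 0.08 to 0.24 on the log2 scale against a median of 0.13 over all tested genes. Of the 31 genes that did not pass, 11 had a 95% interval within 0.5 of 0 in both directions, and 1, Kcnc1, had an interval that reached 1. For the remaining genes a difference between those sizes was not resolved with 3 arrays per genotype. The 8 tested genes with further tested probe sets had 9 of them, of which 6 had the sign of the brightest and 3 the opposite, and none passed (smallest limma adjusted p = 0.358; at least 1 opposite sign for Kcnd2, Cacna1d and Cacna2d1).

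**Figure D3:**
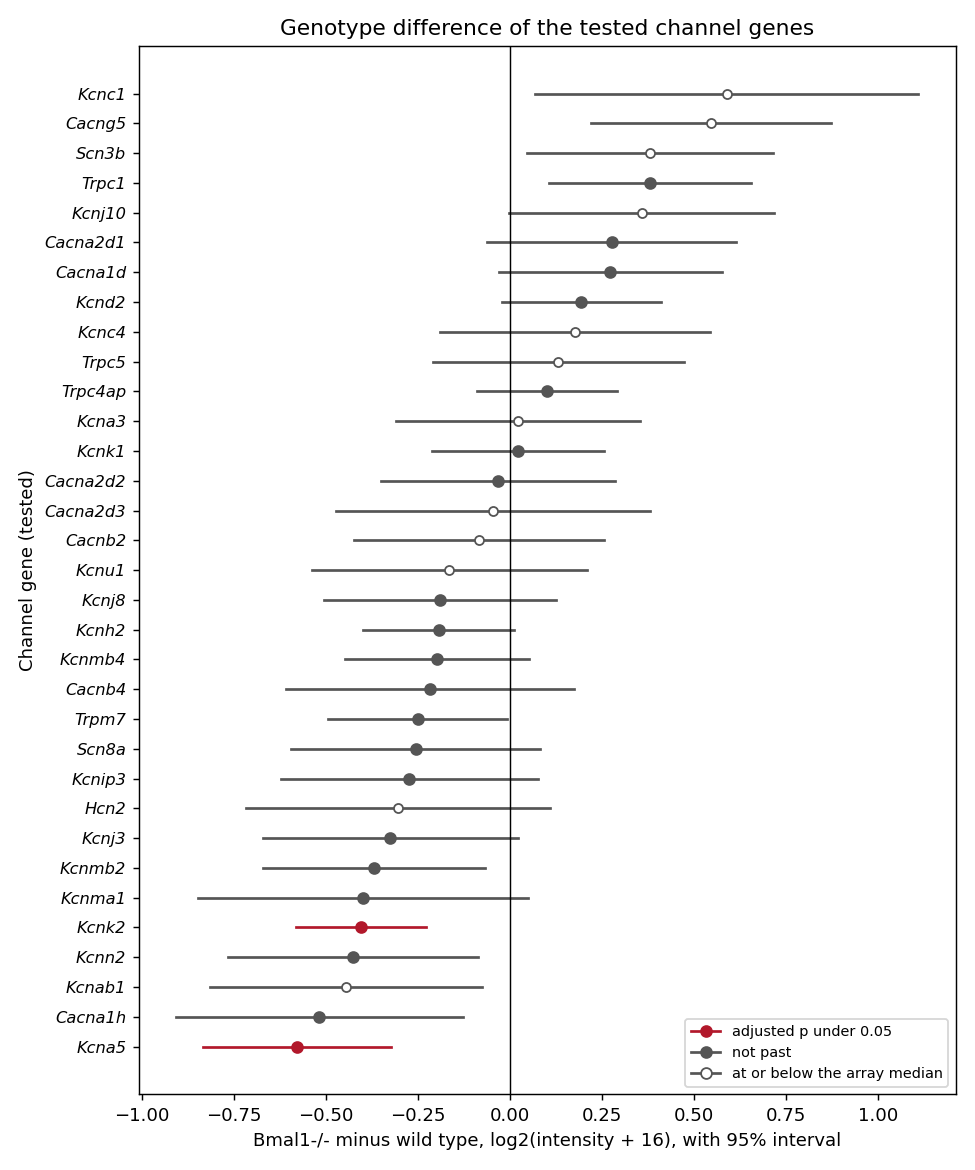
Log2 fold change (x axis, Bmal1-/- minus wild type on the log2(intensity + 16) scale) with its 95% limma interval for each of the 33 tested channel genes on the y axis. Red marks the 2 genes past the threshold, Kcnk2 and Kcna5; open circles are genes at or below the array median, and most intervals cross 0.

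The 78 channel genes below the filter had mean intensities from 0.767 to 18.2 with a median of 5.5, and no single array reading above 34.9. They include genes of well-known pituitary currents, such as Cacna1c (L-type Cav1.2) and Scn2a. When all probe sets were fitted without a filter, none of the 78 passed by its brightest probe set. By that probe set 7 had an unadjusted p under 0.05, beside 9.68% of the 4360 genes on the array with no tested probe set. The smallest limma adjusted p of these brightest probe sets was 0.145, at Cacng3. Dimmer probe sets of Kcnip1 (lower, limma adjusted p = 0.0846) and Cacna1a (higher, 0.141) came nearer and did not pass. In that fit, 1 of the 111 channel genes passed (Kcnk2), against 1.77% of all 12393 genes. The genotypes were apart for 7 of the 78, 4 lower and 3 higher, beside 13.1% of those 4360 genes. Cacna1c read 15.9, 25.7 and 16.3 in wild type and 8.2, 9.8 and 12.6 on the arrays labelled Bmal1-/-, and Cacng3, which lies within 20 Mb of Arntl, read 6.5, 9.4 and 11.1 against 2.5, 2.7 and 2.3. Besides Cacng3, only Trpc2 and Kcne3 of the 111 lie within 20 Mb of Arntl, and none of these 3 was tested. At such intensities none of these differences passed, and the data do not settle whether these 78 genes differ.

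**Figure D4:**
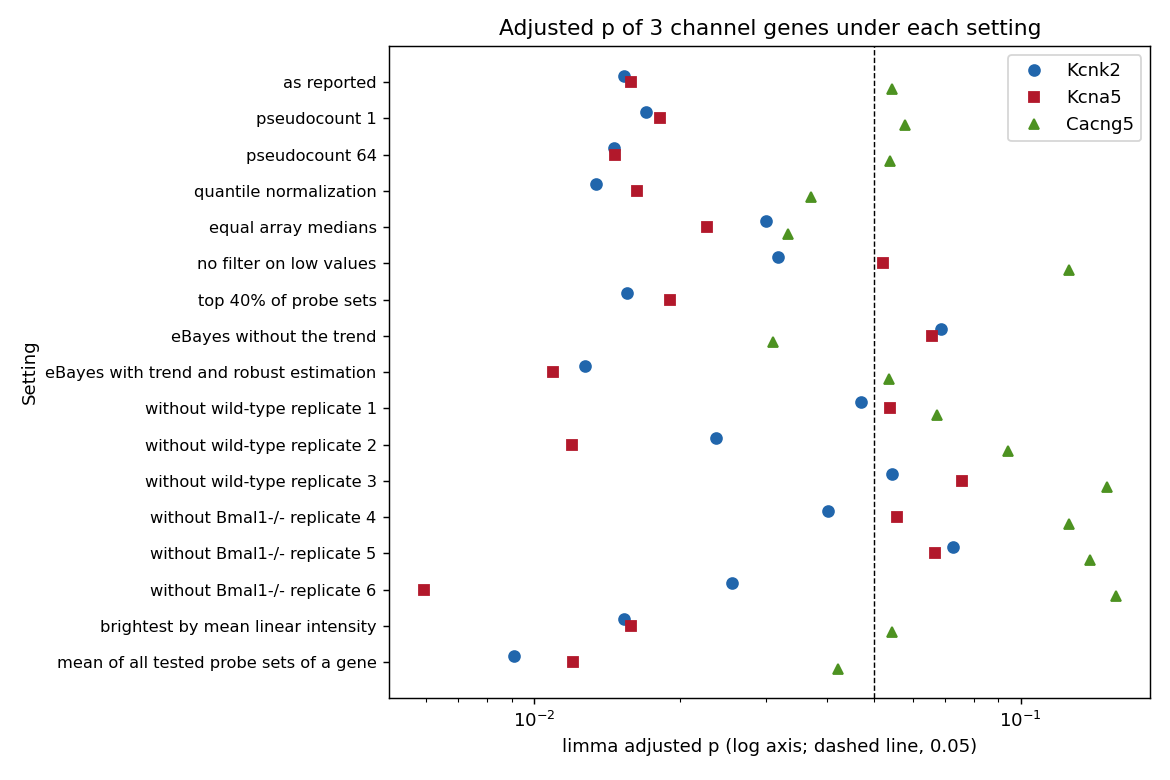
limma adjusted p (x axis, log scale) of Kcnk2, Kcna5 and Cacng5 under the reported setting and each alternative (y axis); the dashed line is the threshold of 0.05. Kcnk2 crosses it in 3 of 16 alternatives, Kcna5 in 6 of 16, and Cacng5 moves to the left of it in 4 of 15. Picking the brightest probe set by linear mean repeats the reported fit for Kcnk2 and Kcna5.

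Other genes of ion transport were read from lists of pumps, exchangers, calcium stores, chloride and ligand-gated channels and channel partners. Of 93 listed, 63 were on the array and 40 were tested, of which 3 fell and 2 rose. That is 12.5% called beside the background of 5.66%, with 3% of all tested genes called upward. The lists were chosen with earlier results of these data known, so the higher share is no test of these genes. The median over the 40 was -0.06, and 24 of the 40 were below 0. In the list of channel partners, Fgf13, which binds and modulates voltage-gated sodium channels, read 213.4, 212.3 and 229.2 in wild type and 106.3, 110.8 and 153.6 on the arrays labelled Bmal1-/-. Every wild-type array was higher, and Fgf13 differed by -0.76 on the log2 scale (SE 0.13, limma adjusted p = 0.00523); this call held in all 16 alternatives. The 9 other tested partners did not pass, with Stac2 (-0.51, adjusted p = 0.080), which slows the inactivation of L-type channels, and Ank3 (0.39, adjusted p = 0.077), which anchors sodium channels, nearest.

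Of 5 tested genes for calcium stores, Orai1 fell. It encodes the pore through which calcium enters when stores are emptied, and it read 56.5, 65.6 and 68.1 in wild type against 22.7, 39.6 and 31.1. The groups were apart, differing by -0.77 on the log2 scale (SE 0.16, adjusted p = 0.0178). Stim1, the store sensor that opens it, was at -0.08, with values of 73.5 to 89.5 against 72.7 to 77.8. The Orai1 call was lost without wild-type replicate 3 (0.0735) or Bmal1-/- replicate 4 (0.0626) and with no filter (0.0606). In the list of sodium leak, ENaC and related channels, Scnn1b, the beta subunit of the epithelial sodium channel, read 82.5, 94.3 and 104.3 against 27.9, 51.3 and 53.6 (-0.89, SE 0.18, adjusted p = 0.0143). The groups did not overlap, and the call was lost without wild-type replicate 3 (0.0693) and with no filter (0.0555). Scnn1a, the alpha subunit it assembles with, had a difference of -0.19 and overlapped.

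The sodium-potassium pump, which maintains the gradients that all these channels use, had 2 of 5 tested genes higher. The 5 were the beta subunit genes Atp1b1, Atp1b2 and Atp1b3 and the regulator genes Fxyd1 and Fxyd6. No alpha subunit gene, which encodes the catalytic part, was among the genes read. Atp1b1, its most widespread beta subunit, read 1769, 1892 and 1933 in wild type and 2233, 2215 and 2365 on the arrays labelled Bmal1-/- (0.28, SE 0.06, adjusted p = 0.0267). Atp1b2, the beta subunit typical of glia and neurons, read 163.2, 157.9 and 152.1 against 249.4, 211.7 and 218.0 (0.48, SE 0.10, adjusted p = 0.0170). Both were apart. The Atp1b1 call was lost without any of the arrays but wild-type replicate 2 (highest adjusted p = 0.104, without Bmal1-/- replicate 6), with no filter (0.0666) and without the variance trend (0.147). The Atp1b2 call was lost without wild-type replicate 3 (0.0650) or Bmal1-/- replicate 4 (0.0707) and in a fit on gene means (0.0552). Atp1b3 (0.08) and Fxyd1 (0.12) overlapped and did not pass. Fxyd6 went the other way without overlap, at 45.9, 50.5 and 54.2 against 34.1, 42.6 and 39.6 (-0.27, adjusted p = 0.278), and did not pass. None of the 3 tested calcium pumps and exchangers, 8 chloride channels or 4 ligand-gated receptors passed, where P2rx4, an ATP-gated cation channel, came nearest (-0.44, adjusted p = 0.073). The brightest probe sets of 6 of the 7 lists overlapped between genotypes. These were Atp2a2, the calcium pump of the endoplasmic reticulum (-0.045), the exchanger Slc24a3 (0.0054), the chloride transporter Clcn3 (0.18), the channel regulator Rem2 (0.04), the GABA receptor subunit Gabrb1 (-0.09) and Tpcn1, a cation channel of endosomes and lysosomes (-0.20). In the list of the sodium-potassium pump the brightest was Atp1b1.

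**Figure D5:**
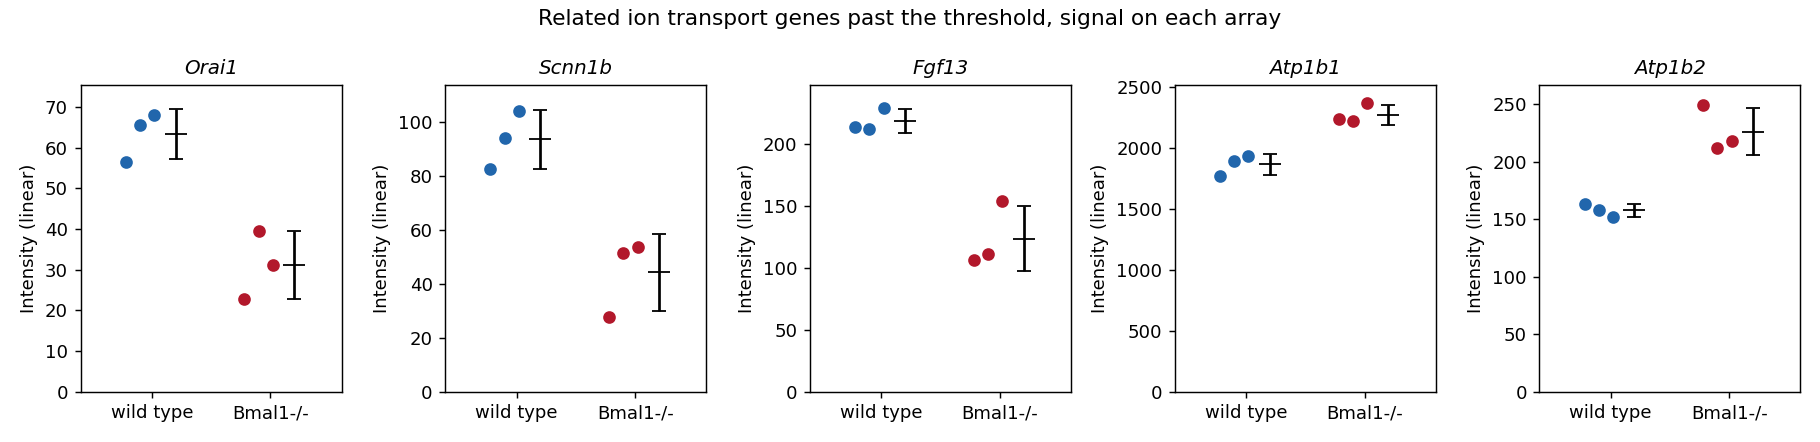
Linear intensity (y axis, from 0) on each array of the 5 related genes past the threshold, with wild-type arrays in blue, arrays labelled Bmal1-/- in red and the mean with its SD in black. Orai1, Scnn1b and Fgf13 are lower and Atp1b1 and Atp1b2 higher on every array labelled Bmal1-/-.

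In whole glands, fewer cells of a type and less RNA per cell cannot be told apart. Beside the lower Kcnk2 and Kcna5 signals, the summed somatotroph markers Gh and Ghrhr read 18786 to 21066 in wild type and 15835 to 17129 on the arrays labelled Bmal1-/-, and both genes fell. The pericyte markers summed to 724 to 861 against 479.8 to 504, with 1 of 2 tested (Rgs5) falling. Rgs5 made up most of that sum, and the other 2 pericyte markers overlapped, at 99.7, 119.5 and 105.2 against 88.1, 99.8 and 114.8. The macrophage markers summed to 249.7 to 274 against 180.3 to 200.1, with 1 of 3 (C1qa) falling, and without C1qa they were also lower without overlap. The posterior lobe markers summed to 217 to 334 against 157 to 187, with 0 of 3 past the threshold. Oxt was the largest part of that sum, at 146.4, 113.8 and 191.5 against 96.9, 81.8 and 104.3. Oxt (-0.57, limma adjusted p = 0.057) and Nefm (-0.51, limma adjusted p = 0.068) were lower without overlap, and Nefl (-0.24) overlapped. The markers Avp, Gfap, Nkx2-1 and Rax were below the filter and overlapped. In the other direction, the folliculostellate markers summed to 552 to 687 in wild type and 722 to 779 on the other arrays, with 1 of 4 (Aldh1a2) rising. Without Aldh1a2 the sums overlapped, at 302.1, 263.0 and 270.3 against 277.8, 249.6 and 284.0, and S100b, below the filter, was lower without overlap (11.3, 11.1 and 13.8 against 5.0, 0.4 and 7.0). The endothelial markers summed to 458 to 544 against 555.5 to 636, with 1 of 5 (Plvap) rising. Without Plvap they overlapped, at 198.5, 253.3 and 252.0 against 246.6, 235.4 and 224.8, and Kdr (-0.38) and Pecam1 (-0.10) were below 0 without passing. The oligodendrocyte markers summed to 84.7 to 105 against 136 to 149.8, with the 1 tested (Mbp) rising and Mog below the filter. None of the lactotroph, corticotroph, gonadotroph, thyrotroph or erythrocyte markers tested passed. Of these, Pomc (-0.24, limma adjusted p = 0.073) and Fshb (-0.28, limma adjusted p = 0.095) were lower without overlap. The other corticotroph marker Crhr1 (0.12) and the gonadotroph markers Lhb (0.18) and Gnrhr (-0.23) overlapped. The muscle markers were all below the filter, and Pax7, the melanotroph marker on the array, was too. The part of these cell types in the channel results was not tested. The hormone genes that define the tissue, Gh, Prl, Pomc, Lhb, Fshb and Tshb, read between 2116 and 20434 on every array.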

How the data were processed

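Biotin-labelled cRNA from 1 ug of total RNA per pool was hybridised to Affymetrix mouse arrays, and the deposited values are linear intensities from MAS5, per the submitters' processing notes, scaled per array by the authors. The sources used here give neither a MAS5 version nor detection calls. The 2% trimmed mean was 100.0 on every array. The 64 control probe sets of 22690 were left out. Genes were named only from 20380 probe sets annotated with 1 gene, and all 111 channel genes matched RefSeq by gene ID.

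Values were taken as log2(intensity + 16), on which fold changes of dim genes are understated. The 13576 brightest probe sets (60%) were fitted with limma 3.58.1 in R 4.3.3 (lmFit, eBayes with an intensity trend, two-sided), with Benjamini-Hochberg adjustment over all of them and a threshold of 0.05; 752 (5.54%) passed. Per gene the brightest probe set is given. The code was also run on simulated data with independent noise and no effect shared by an array. That setting differs from these arrays, so it does not check the calls reported here. Each array was left out in turn. The other alternatives were the top 40% of probe sets or an unfiltered fit, a pseudocount of 1 or 64, equal array medians or quantile normalization, a variance model with no trend or a robust one, and other rules for choosing a gene's probe set.

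The named genes are every channel gene past the threshold, the 2 brightest above the array median per family, the 5 with the smallest p and the 3 with the largest fold change among the rest, and those nearest the filter; others are named for contrast within a complex. Of the related genes, those past the threshold and the brightest of each list are named. The members and lists were chosen with earlier results of these data known. The promoter sequences are RefSeq's (GRCm38.p6). The labels give no batch and do not say more of the pools than that each holds 3 glands of 1 genotype.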

Additional observations from a re-analysis of the deposited data

How the results depend on the processing

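The count of channel genes past the threshold, 2 as reported, became 1 with no filter on low values (Kcnk2 kept) and 1 without the intensity trend (Cacng5, upward), and lay between 0 and 2 when an array was left out. Leaving out wild-type replicate 3 gave 0, as did leaving out Bmal1-/- replicate 5; 1 gene (Kcnk2) passed when wild-type replicate 1 was omitted, and likewise for Bmal1-/- replicate 4. In those fits with 0 calls by limma, 9 of 33 and 9 of 32 channel genes had an unadjusted p under 0.05, and the smallest adjusted p was 0.0545 and 0.0665; no other tool was run. Over the whole array, 752 probe sets became 330 with no filter and 407 without the trend, and 314 to 950 with an array left out. The related genes past the threshold, 5, became 2 with no filter and 1 to 7 with an array left out (1 without wild-type replicate 3, 3 without Bmal1-/- replicate 4). Their median of -0.06 was -0.044 with a pseudocount of 64, -0.0027 with equal array medians, -0.045 with no filter, -0.030 for gene means, and -0.080 to -0.044 with an array left out. The 21 channel genes above the median became 13 when each array was asked separately.

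Of 29 genes followed, 26 kept their sign in every alternative. Kcnk1 turned to -0.0017 after quantile normalization and ranged from -0.047 to 0.12 with an array left out, falling below 0 when Bmal1-/- replicate 5 was omitted, as also on omission of array 2 (-0.04) or 3 (-0.01) of the wild type. Cacna2d2 turned to 0.028 with equal array medians and ranged from -0.17 to 0.064, above 0 when wild-type replicate 2, Bmal1-/- replicate 4 or Bmal1-/- replicate 5 was omitted. Kcna3 ranged from -0.0064, without wild-type replicate 1, to 0.063. None of these passed in any fit. No paired analysis was possible because the genotypes share no replicate number. The number of arrays, and for most channel genes a signal near background, limit the precision; the cause of these shifts was not tested.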

Other observations

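A pair of probe sets annotated with Trpc2 and a second gene entered no count of channel genes. The probe set shared with Xndc1 read 41.2, 34.4 and 33.0 in wild type, overlapping the 37.6, 27.1 and 17.4 of the arrays labelled Bmal1-/- (log2 fold change -0.29, SE 0.18, limma adjusted p = 0.393). The probe set shared with Xntrpc was below the filter, at 15.3 or less on every array. Trpc2 encodes a channel known for pheromone sensing in the vomeronasal organ.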
